A study of Rattus norvegicus with 80 samples.

Results

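Mammary epithelial cells (MECs) of the rat line labelled IFPS were compared with MECs of the line labelled IF, with 3 libraries of each, 6 of the 80 libraries of the series. The libraries were assigned by their tissue and line labels, and the contrast itself was picked, with earlier results of these data known, as the largest difference between mutated lines in MECs, so that the size of its count is a description. In both lines Nf1 is mutated, whose product neurofibromin switches Ras signaling off. The labels do not spell out the names IF, PS and IFPS and do not give the allele of a line, and no age, promoter or clone is named for any group. Wildtype and PS MECs, with 3 libraries each, entered the same fit of 12 libraries. Fibroblasts and mature adipocytes (3 libraries of each line and of wildtype) were used for the same contrast. So were whole mammary pads (3 of each, with title numbers 1 to 12) and tumors (9 IFPS, 5 IF and 9 PS). Wildtype libraries of the normal tissues also served to choose tissue-enriched genes, and values of PS and wildtype are given beside the contrast. Per the labels, MECs and fibroblasts were plated in culture dishes and lysed near confluency, whereas the series text calls the normal cell types flow sorted, and neither says whether a library was 1 animal. P-values therefore measure only the spread between these libraries.

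MECs line the ducts and lobules of the gland, where an inner luminal layer makes milk and an outer contractile basal layer expels it. Ras relays signals of growth factor receptors to kinase cascades that set growth and survival in such cells, and loss of neurofibromin lengthens the active state of Ras. The deposited genes are Ensembl rat identifiers without symbols. No identifier could be tied to a gene name here, so genes are described by identifier, level and pattern, and roles of single genes are not given.

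Counts per library were 21.3e6 to 24.4e6 in IFPS and 22.7e6 to 24.6e6 in IF MECs, and the wildtype and PS MEC libraries were deeper, at 29.7e6 to 31.6e6 and 27.1e6 to 30.9e6. Spearman correlations across genes, which are not independent replicates, were 0.994 to 0.996 within IFPS, 0.991 to 0.994 within IF and 0.987 to 0.994 between the lines. The labelled cell type could not be checked against named markers. In its place, 803 genes were taken as an epithelial-enriched group. They were at least 4-fold higher in wildtype MECs than in each of wildtype fibroblasts and adipocytes. They also stood at 1 CPM (counts scaled to the library total) or more in wildtype MECs, and pads were not part of this rule. They held 4.19 to 4.86% of the counts in IFPS MECs and 4.72 to 5.79% in IF MECs, ranges that overlapped, against 0.233 to 0.402% in the IFPS and IF fibroblasts. A fibroblast-enriched group chosen in the same way held 1.68 to 2.20% in IFPS and 1.72 to 1.81% in IF MECs, and 10.2 to 14.2% in the IFPS and IF fibroblasts.

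Between IFPS and IF MECs, 109 of 14688 tested genes differed, which is 0.742% of the genes tested. Of these, 75 genes (0.511%) were higher in IFPS and 34 (0.231%) were lower. The test was the quasi-likelihood test of edgeR, and a gene counted as different at a Benjamini-Hochberg adjusted p under 0.05. The genes higher in IFPS had mostly small differences, with a median log2 fold change of 0.48 and a range of 0.23 to 2.33. Of these 75 genes, 58 changed by less than 1.5-fold. Those lower in IFPS held the larger differences, with a median of -0.70 and a range of -6.41 to -0.23, and 12 of the 34 changed by more than 1 log2 unit against 7 of the 75 higher genes. Over all genes tested the median absolute log2 fold change was 0.12. The higher genes were also the more abundant ones, with a median level of 42.1 CPM over the MEC libraries against 20.9 CPM for the lower genes and 21.8 CPM for all genes tested.

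**Figure D1:**
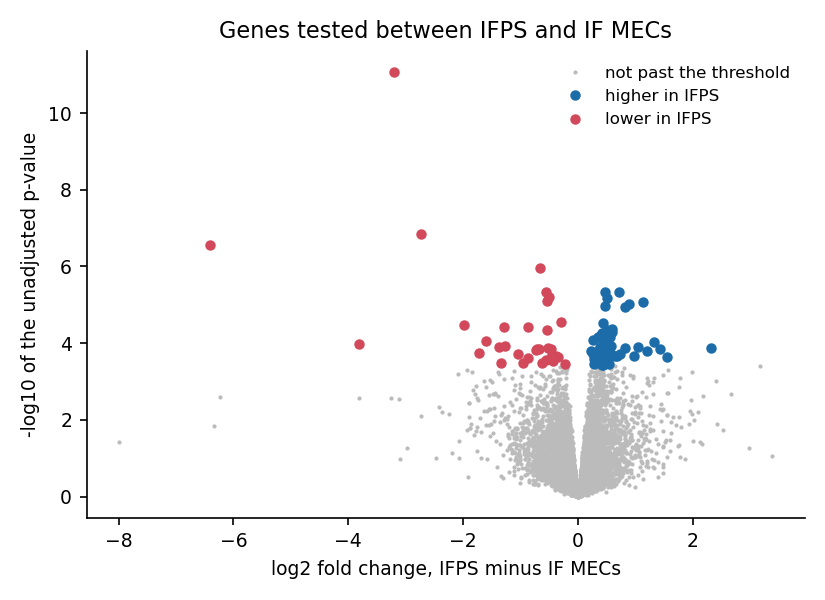
Each point is 1 of the 14688 genes tested, with the log2 fold change of IFPS minus IF MECs on the x axis and -log10 of the unadjusted edgeR p-value on the y axis. Most of the 75 higher genes lie at small positive differences. The gene with the smallest p-value and the gene with the most negative difference past the threshold (-6.41) both lie on the lower side.

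All 109 genes had IFPS libraries entirely above or entirely below the IF libraries, but the same libraries chose these genes, so this adds no support. Among all genes tested, the 3 IFPS libraries lay above the 3 IF libraries for 1542 genes (10.5%) and below them for 1542 genes (10.5%). At an unadjusted p under 0.05 there were 2192 genes (14.9% of those tested), of which 50.4% were higher in IFPS.

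The number of genes called depended on single libraries. It fell to 6 without IFPS replicate 2, 8 without IFPS replicate 3, 10 without IF replicate 2, 18 without IF replicate 1, 27 without IF replicate 3 and 41 without IFPS replicate 1. Leaving out a library of the 2 lines not compared also moved it. These libraries enter the estimate of the spread, the low-count filter and the size factors. The number was 17, 36 and 64 without a PS library (replicates 3, 1 and 2). It was 79, 213 and 155 without wildtype replicates 1, 2 and 3. In the 6 fits that left out an IFPS or IF library, all 109 genes kept their sign and an unadjusted p under 0.05, but 4 genes, which were lower in IFPS, passed the adjusted threshold in all 6. The higher genes passed in at most 5 of the 6. The excess of higher over lower calls was not kept in every fit: 2 genes were higher and 4 lower without IFPS replicate 2, 3 and 5 without IFPS replicate 3, 4 and 6 without IF replicate 2, 9 and 9 without IF replicate 1, and 8 and 9 without PS replicate 3.

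**Figure D2:**
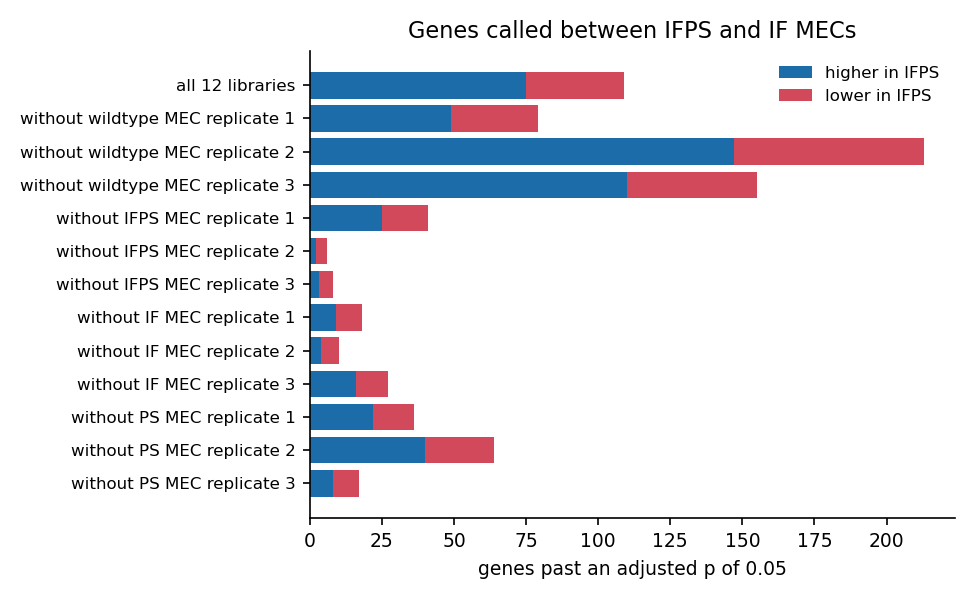
Bars give the number of genes past an adjusted p of 0.05 between IFPS and IF MECs, higher in IFPS in blue and lower in red, with all 12 libraries and with 1 library left out. The bars range from 6 genes without IFPS replicate 2 to 213 without wildtype replicate 2.

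The lower genes with the strongest evidence were near wildtype level in IFPS and raised in both IF and PS. ENSRNOG00000012067 had the smallest p-value. Its level in the 3 IFPS libraries was 16.3, 16.3 and 15.7 CPM, in IF 131.6, 161.8 and 152.1 CPM, in wildtype 15.7, 12.4 and 16.5 CPM, and in PS 163.7, 138.7 and 170.0 CPM. IFPS and wildtype libraries overlapped at the low level, and IF and PS libraries overlapped at the high level, with no library between. The log2 fold change of IFPS minus IF was -3.21 ± 0.12 (SE, n = 3 per line, edgeR adjusted p = 1.25e-07).

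ENSRNOG00000015716 had the next smallest p-value, with the same order of lines. It stood at 8.3, 5.9 and 6.9 CPM in IFPS, 58.6, 44.6 and 36.7 CPM in IF, 4.5, 6.1 and 2.9 CPM in wildtype, and 64.1, 60.4 and 79.8 CPM in PS. Every IF and PS library lay above every IFPS and wildtype library. The log2 fold change of IFPS minus IF was -2.73 ± 0.24 (SE, n = 3 per line, edgeR adjusted p = 0.00102).

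The gene with the third smallest p-value had the largest fold change of the 109. It had 6, 1 and 2 reads in IFPS, 155, 348 and 332 in IF, 2, 7 and 3 in wildtype, and 189, 180 and 460 in PS. Its reads in IFPS and wildtype were close to none, and the IF and PS libraries overlapped. The log2 fold change was -6.41 ± 0.61 (SE, n = 3 per line, edgeR adjusted p = 0.00137), a value that depends on the few reads in IFPS. The gene with the fourth smallest p-value completes the 4 that passed in every fit without an IFPS or IF library. It was abundant and changed little, at 74.5 ± 4.8 CPM in IFPS and 117.6 ± 6.8 CPM in IF (SD, n = 3), with a log2 fold change of -0.66 ± 0.07 (SE, edgeR adjusted p = 0.00392).

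The genes whose levels across the 12 MEC libraries were most like those of ENSRNOG00000012067 were also lower in IFPS than in IF. Pearson's r of log2 CPM was 0.978 with the gene of the third smallest p-value, 0.965 with ENSRNOG00000015716 and 0.929 with a gene of a smaller log2 fold change (-0.72) at 11.9 CPM in IFPS, 10.9 in wildtype, 19.5 in IF and 25.5 in PS. These 12 libraries fall into a low pair of lines and a high pair, so r describes the shared split of the lines and was not tested.

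Not every large difference had this order of lines. A gene of low level had 0, 1 and 2 reads in IFPS and 22, 15 and 11 in IF, but 17, 21 and 30 in wildtype and 14, 11 and 6 in PS. For this gene IFPS was the line that stood apart. Among smaller differences, the lower gene ranked 7 by p-value (log2 fold change -0.55) was abundant and had IF at the wildtype level. Its means were 106.6 CPM in IFPS and 112.5 CPM in PS, against 156.3 CPM in IF and 155.2 CPM in wildtype. A gene with a log2 fold change of -1.99 stood at 1.86 to 3.02 CPM in IFPS and 9.67 to 9.88 CPM in IF, and in PS at 6.24, 2.5 and 6.61 CPM.

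The genes higher in IFPS with the smallest p-values showed the other arrangement, with IF below the other lines. ENSRNOG00000025527 stood at 43.8, 49.5 and 48.2 CPM in IFPS and 34.1, 35 and 32.8 CPM in IF. The 3 wildtype libraries ranged from 44.0 to 44.7 CPM, within the IFPS range, and the PS libraries from 37.0 to 39.5 CPM, between the 2 lines compared. Its log2 fold change was 0.47 ± 0.06 (SE, n = 3 per line, edgeR adjusted p = 0.0100). ENSRNOG00000016748 stood at 22.8, 22.2 and 22.3 CPM in IFPS and 13, 12.9 and 15.1 CPM in IF, against 21.4 to 22.8 CPM in wildtype and 16.4 to 19.9 CPM in PS. Here too IF was lowest without overlap and IFPS overlapped wildtype. The log2 fold change was 0.72 ± 0.09 (SE, n = 3 per line, edgeR adjusted p = 0.0100). Both genes missed the threshold without IFPS replicate 2 (edgeR adjusted p = 0.0586 for each) and without IFPS replicate 3 (0.0516 for each), and ENSRNOG00000016748 also without IF replicate 2 (0.0597).

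**Figure D3:**
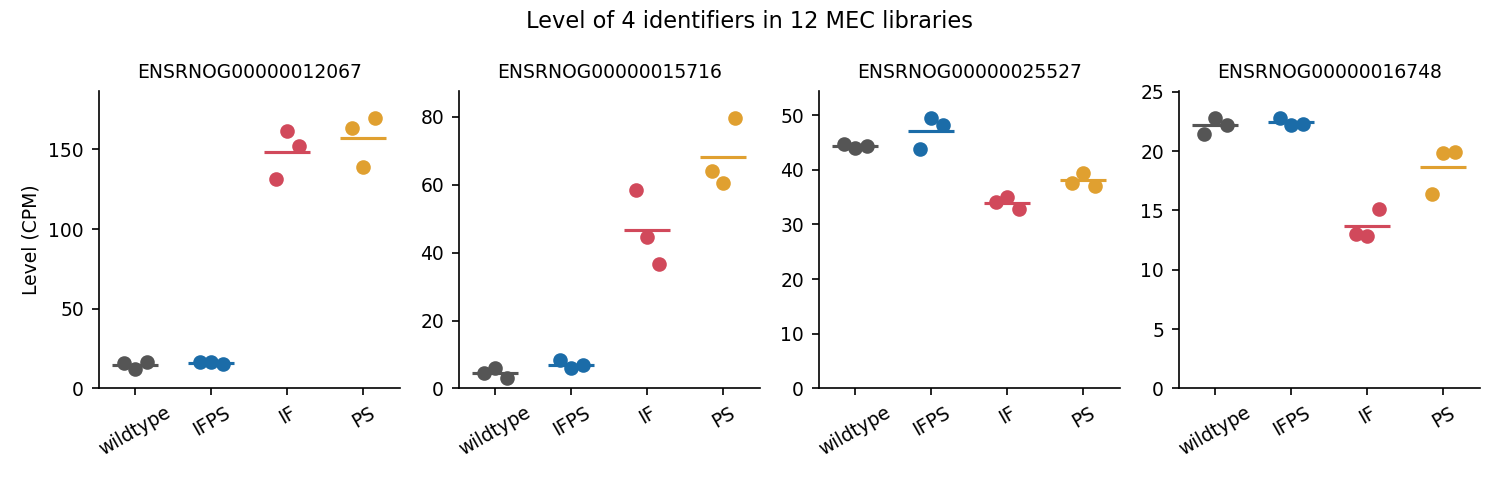
Points give the level in CPM (linear axes from 0) in each of the 12 MEC libraries, and horizontal bars give the mean of 3 libraries per line. For the lower genes ENSRNOG00000012067 and ENSRNOG00000015716, IF and PS stand above wildtype and IFPS. For the higher genes ENSRNOG00000025527 and ENSRNOG00000016748, IF is lowest and IFPS lies at or near wildtype.

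Among genes higher in IFPS by the widest margin, levels were low or variable. The largest log2 fold change, 2.33, belonged to a gene with 20, 27 and 26 reads in IFPS and 1, 8 and 6 in IF, against 28, 21 and 28 in wildtype and 22, 20 and 16 in PS. Reads in IF were few. Scaled to depth, IFPS (0.924 to 1.22 CPM) overlapped wildtype (0.714 to 0.951 CPM) and lay above PS (0.514 to 0.772 CPM). A gene with a log2 fold change of 1.43 stood at 14.5, 18.1 and 13.6 CPM in IFPS and 3.35, 5.02 and 8.79 CPM in IF, with wildtype at 13.3 to 16.7 CPM. Its IF libraries differed from each other by more than 2-fold but all lay below IFPS.

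The position of wildtype and PS, whose libraries the rule for a call did not compare, was counted over the 109 genes and is given with no test. The wildtype mean was nearer to the IFPS mean than to the IF mean for 62 of the 75 higher genes (82.7%) and 23 of the 34 lower genes (67.6%), against 56.1% of all genes tested. Over the 109 genes this made 85, and between 77 and 86 when size factors were changed or when wildtype, IFPS or IF libraries were left out in turn. The higher genes had a median log2 difference from wildtype of -0.36 in IF and 0.11 in IFPS, and the lower genes 0.49 in IF and -0.19 in IFPS. IF thus stood farther from wildtype than IFPS did in the median of both lists.

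PS did not take the same side in both lists. It was nearer to IFPS than to IF for 58 of the 75 higher genes (77.3%) but for 11 of the 34 lower genes (32.4%), against 48.3% of all genes tested. By library, the median level of the higher genes relative to the wildtype mean was -0.01, -0.13 and -0.03 (log2) in PS, 0.09, 0.16 and 0.13 in IFPS and -0.39, -0.33 and -0.30 in IF. For the lower genes it was 0.19, 0.16 and 0.21 in PS, -0.11, -0.28 and -0.18 in IFPS and 0.41, 0.52 and 0.51 in IF. In both lists the PS libraries lay between the other mutated lines, and in the higher genes they also lay around wildtype.

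**Figure D4:**
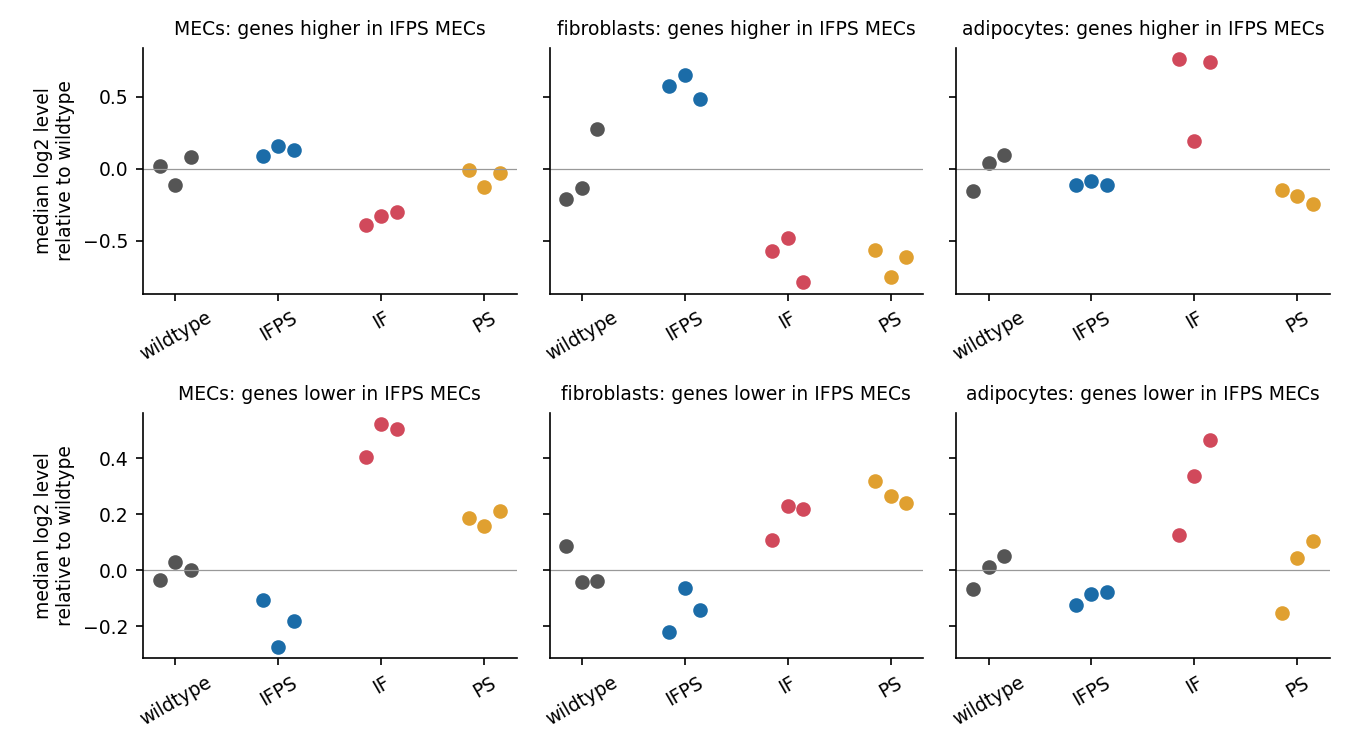
Points give, for each library, the median over the 75 higher genes (top) or the 34 lower genes (bottom) of the log2 level relative to the wildtype mean of that tissue. In MECs the IF libraries stand apart (-0.39 to -0.30 and 0.41 to 0.52), in fibroblasts IFPS and IF lie on opposite sides of wildtype for the higher genes, and in adipocytes the IF libraries are the high ones.

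Genes enriched in epithelium made up 5 of the 109 calls, all of them lower in IFPS. Of the 803 epithelial-enriched genes, 0 were higher and 5 were lower in IFPS by edgeR (0.623% called, against 0.789% of 12671 genes in none of the enriched groups). Of those 12671 genes, 73 were higher and 27 lower by edgeR. At an unadjusted p under 0.05 by edgeR, 971 of the 12671 were higher and 857 lower, and DESeq2 called 246 and 144. The median log2 fold change of the 803 genes was -0.17 and 575 of them had a negative sign. At an unadjusted p under 0.05, 30 of the 803 were higher and 131 lower, and DESeq2 called 9 higher and 29 lower. The 3 IFPS libraries lay below the 3 IF libraries for 126 of these genes (15.7%) and above them for 34 (4.23%), against 10.5% in each direction over all genes tested. This lean has the same direction as the share of counts held by the group, whose ranges overlapped between the lines, and a smaller share of cells with these genes cannot be told apart from less RNA of them per cell. The groups enriched in other tissues had medians nearer to 0. Of 234 fibroblast-enriched genes tested, 0 were higher and 1 lower by edgeR (18 and 11 at an unadjusted p under 0.05, 3 and 3 by DESeq2), and their median log2 fold change was 0.05. Of 661 adipocyte-enriched genes tested, 2 were higher and 1 lower, with a median of 0.01. Of 395 genes enriched in pads alone, 0 were higher and 1 lower by edgeR (31 and 38 at an unadjusted p under 0.05, 7 and 5 by DESeq2), with a median of -0.03. All groups were chosen in wildtype libraries only, so the choice used no IFPS or IF library.

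The same contrast was tested in the fibroblast libraries, whose title numbers pair them with the MEC libraries, so the fibroblasts are not independent of the MECs. There 2175 genes (15.7%) were higher and 2177 (15.7%) lower in IFPS than in IF, of 13879 tested. Of the 75 genes higher in IFPS MECs, 75 were tested in fibroblasts, of which 61 were higher and 0 lower by edgeR, and the count higher stayed between 56 and 62 and the count lower at 0 under every alternative fit of the fibroblasts, DESeq2 included. Their median log2 fold change was 1.18, against -0.01 over all genes tested in fibroblasts, and 54 of the 75 had a larger absolute change in fibroblasts than in MECs. In the fibroblasts, the libraries' median levels of these genes relative to wildtype were 0.57, 0.65 and 0.48 in IFPS, -0.57, -0.48 and -0.79 in IF, -0.57, -0.75 and -0.61 in PS, and -0.21, -0.13 and 0.28 in wildtype. IFPS and IF thus lay on opposite sides of the wildtype libraries without overlap, whereas in MECs IFPS lay next to wildtype. Of the 34 lower genes, 28 could be tested in fibroblasts, of which 16 were lower and 1 was higher, with a median of -0.50. The fibroblast-enriched group held 10.2 to 10.9% of the counts in IFPS fibroblasts and 12.9 to 14.2% in IF fibroblasts, without overlap, and the part of this difference in the comparison was not tested.

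Whether the contrast differed between MECs and fibroblasts was tested in 1 fit of the 24 libraries with an interaction term. The fit had no term for the title number that pairs the libraries, and with it as a block 2382 genes passed in place of 1830. Of 15224 genes, 1830 (12%) passed. Of the 75 higher genes, 48 passed, 42 with a smaller value in MECs and 6 with a larger one, and the median of the difference (MECs minus fibroblasts) was -0.65. Of the 34 lower genes, 8 passed. The low-count filter kept 28 of these 34 in fibroblasts alone. For the genes it removed there, the difference rests on few fibroblast reads.

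In adipocytes the genes higher in IFPS MECs went mostly the other way. All genes tested there included 3523 (24.6%) higher and 4051 (28.3%) lower in IFPS, of 14304. Of the 74 higher genes tested, 6 were higher and 41 lower, with a median log2 fold change of -0.75 against 0.00 over all genes. The median level of these genes relative to wildtype was 0.76, 0.19 and 0.74 in the IF adipocyte libraries, against -0.11, -0.09 and -0.12 in IFPS and -0.15, -0.19 and -0.25 in PS. The IF libraries were the ones that stood apart, upward, and IF replicate 2 less than the other two. Of the 31 lower genes tested, 14 were lower and 4 higher. Taking fibroblasts and adipocytes side by side, 37 of the 74 higher genes were higher in IFPS fibroblasts and lower in IFPS adipocytes, a pattern of 566 (4.3%) of the 13159 genes tested in both.

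The IF adipocyte libraries also held more counts of other cell types' genes. The fibroblast-enriched group held 1.22 to 1.70% of their counts against 0.382 to 0.435% in IFPS adipocytes, and the epithelial-enriched group held 0.371 to 1.37% against 0.165 to 0.202%. The part of these counts in the adipocyte values was not tested. An interaction term for MECs against adipocytes, a test added after the data were seen, passed for 7157 of 15693 genes (45.6%). Its fit had no term for the title number, which the adipocyte and MEC libraries share. Of the 75 higher genes 56 passed, 54 of them with a larger value in MECs, and the median difference was 1.30. Of the 34 lower genes 19 passed, 8 with a larger and 11 with a smaller value in MECs. The low-count filter kept 31 of these 34 in adipocytes alone.

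**Figure D5:**
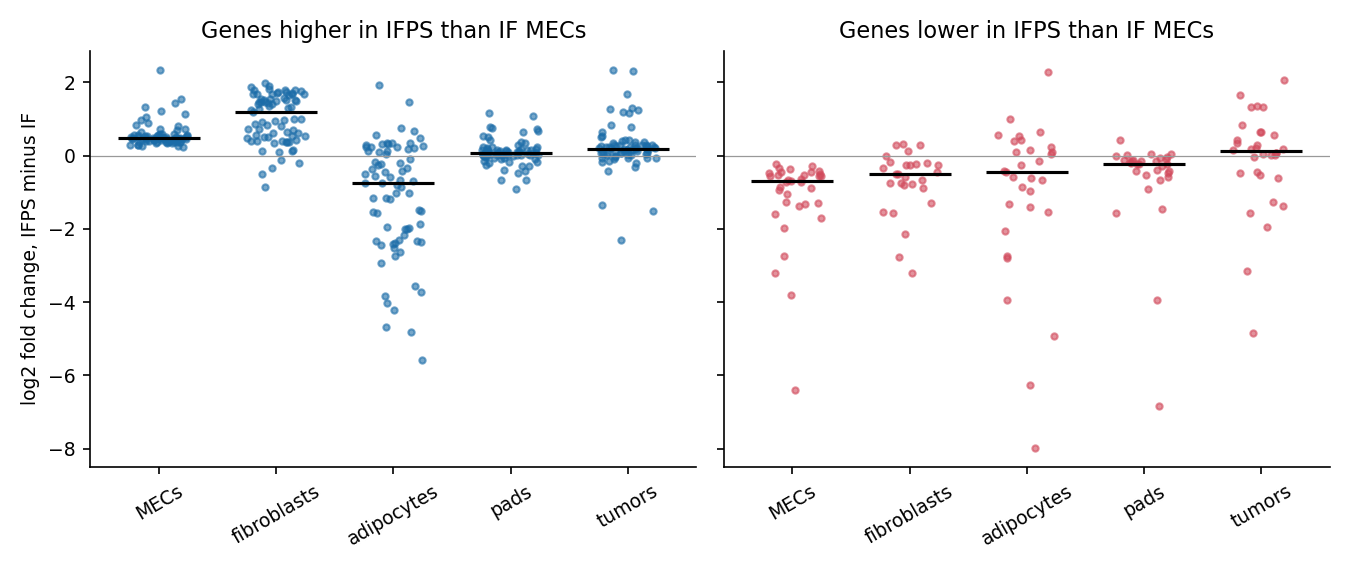
Points give the log2 fold change of IFPS minus IF for the 75 genes higher in IFPS MECs (left) and the 34 lower (right) in MECs and in each other tissue, with horizontal bars at the median. The MEC values chose the genes. The medians of the higher genes are 1.18 in fibroblasts, -0.75 in adipocytes, 0.07 in pads and 0.19 in tumors. Those of the lower genes are -0.50, -0.44, -0.22 and 0.12 in the same order.

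In whole pads few genes passed the adjusted threshold. Of 16097 genes tested, 0 (0%) were higher and 2 (0.0124%) lower in IFPS by edgeR, with 1791 at an unadjusted p under 0.05 and 226 called by DESeq2. Of the 74 higher genes tested in pads, 0 passed in either direction by edgeR and 4 were higher by DESeq2. A positive sign was seen for 54 of the 74, whose median log2 fold change was 0.07, against 0.01 over all genes tested in pads. The pads carry the same title numbers as the MEC libraries, and whether these pair them was not tested. Of the 31 lower genes tested, 27 had a negative sign, and the median log2 fold change of the 31 was -0.22. The share of each sign over all genes tested in pads was not counted. The 2 lower genes that passed were ENSRNOG00000012067 and the gene with the third smallest p-value in MECs, the only genes called in pads. In pads the latter had 5, 3 and 8 reads in IFPS and 367, 713 and 607 in IF. In tumors 229 genes (1.43%) were higher and 449 (2.81%) lower in IFPS, of 15966. Of the 74 higher genes tested there, 1 was higher and 2 were lower, and of the 32 lower genes 0 were higher and 4 lower by edgeR. By sign, 59 of the 74 were positive and 15 negative, with a median log2 fold change of 0.19. Of the 32 lower genes, 21 were positive and 11 negative, with a median of 0.12. The median over all genes tested in tumors was 0.06. DESeq2 called 1987 genes in tumors.

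ENSRNOG00000012067 separated the same pairs of lines in every normal tissue. In fibroblasts it stood at 11.9 ± 2.7 CPM in IFPS and 80.4 ± 17.2 CPM in IF (SD, n = 3), with wildtype at 7.38 and PS at 75.2 CPM. In adipocytes it stood at 0.360 ± 0.124 CPM in IFPS and 92.1 ± 21.1 CPM in IF, with wildtype at 0.750 and PS at 115.5 CPM. In pads it stood at 15.5 ± 3.1 CPM in IFPS and 238.7 ± 51.5 CPM in IF, with wildtype at 15.1 and PS at 243.5 CPM. In each of these tissues the low and the high pair of lines did not overlap. The log2 fold change of IFPS minus IF was -2.76 ± 0.22 in fibroblasts, -7.99 ± 0.28 in adipocytes and -3.94 ± 0.21 in pads (SE, edgeR adjusted p = 0.00016, 6.76e-08 and 4.40e-05). The difference between MECs and fibroblasts in this contrast was -0.47 (edgeR adjusted p = 0.222), and that between MECs and adipocytes was 4.73 ± 0.29 (adjusted p = 1.62e-09).

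In tumors the lines were not separated by ENSRNOG00000012067. The 5 IF tumors ranged from 192.8 to 276.1 CPM, while the 9 IFPS tumors ranged from 3.2 to 283.2 CPM with a median of 20.1, and the 9 PS tumors from 6.25 to 580.6 CPM with a median of 180.4. Some IFPS tumors thus reached the IF level, and the contrast did not pass (log2 fold change -1.38 ± 0.99, SE, edgeR adjusted p = 0.424).

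ENSRNOG00000015716 behaved differently from tissue to tissue. In fibroblasts it was at or near 0 in every line and was not tested. In pads, which hold the epithelium within fat, IFPS stood at 153.9 ± 28.7 CPM and IF at 150.2 ± 66.3 CPM (SD, n = 3) with wildtype at 50.4 ± 3.4 CPM, so that the difference seen in MECs was not seen there (log2 fold change 0.04 ± 0.46, SE, edgeR adjusted p = 0.981). In adipocytes IFPS stood at 0.0339 to 0.0977 CPM and IF at 1.12 to 11.1 CPM. The log2 fold change was -6.27 ± 1.08 (SE, edgeR adjusted p = 0.000874), a value that rests on few reads in IFPS, and the epithelial-enriched group was also higher in those IF libraries. In tumors single samples ranged from 0.0763 to 7012 CPM in IFPS and from 0.252 to 1359 CPM in IF.

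The named genes higher in IFPS MECs took separate courses elsewhere. ENSRNOG00000025527 was also higher in IFPS fibroblasts (log2 fold change 0.71 ± 0.13, SE, edgeR adjusted p = 0.00311) and was lower in IFPS adipocytes (-1.51 ± 0.28, adjusted p = 0.00119). In adipocytes the IFPS libraries ranged from 3.76 to 7.62 CPM and the IF libraries from 12.4 to 20.0 CPM, without overlap. In pads and tumors it did not pass (0.42 ± 0.19 and 0.65 ± 0.60, adjusted p = 0.459 and 0.561). ENSRNOG00000016748 was higher in IFPS fibroblasts by 0.38 ± 0.13 (SE, edgeR adjusted p = 0.0385), where the IFPS libraries ranged from 16.3 to 18.2 CPM and the IF libraries from 11.6 to 15.7 CPM. That call was lost with only the IFPS and IF fibroblasts fitted (edgeR adjusted p = 0.0504) and without each IFPS replicate, IF replicate 1 or IF replicate 2 (0.0528 to 0.121), and it held in 4 of 10 alternative fits. It did not pass in adipocytes (0.33 ± 0.14, adjusted p = 0.0657), pads (0.64 ± 0.16, adjusted p = 0.305) or tumors (-0.41 ± 0.16, adjusted p = 0.124), although DESeq2 called it in pads (adjusted p = 0.0203) and the pad libraries of the lines did not overlap, at 30.8 to 32.4 CPM in IFPS and 16.8 to 24.2 CPM in IF.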

How the data were processed

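The deposited table holds raw counts of reads per Ensembl rat gene for 32883 identifiers. Per the submitters' processing notes, Trim Galore, STAR 2.5.2b and the build Rnor_6.0 were used; the counting tool, annotation and use of strand are not given in the sources used here, so genes that overlap or share reads with a copy are uncertain. Libraries were grouped by their labels. Replicate pairs of IFPS and IF MECs differed beyond sampling noise (chi-square per degree of freedom 8.70 to 28.1 over genes with at least 20 counts), so each library was 1 replicate.

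Each tissue was fitted with edgeR 4.0.16 in R 4.3.3 (TMM, filterByExpr, quasi-likelihood test, Benjamini-Hochberg over all genes tested), over all its lines. CPM used TMM-scaled totals, and log2 CPM a prior count of 2. Standard errors are the absolute log2 fold change divided by the square root of F. The tests were checked on simulated counts, with planted changes larger than most differences called between IFPS and IF MECs. That check does not cover the smaller differences. The contrast, gene lists and tests were chosen with earlier results of these data known. Identifiers matched 0 symbols of the RefSeq table, so Nf1, the planned gene and marker lists and all sequences were not analysed here; the tissue-enriched groups, the positions relative to wildtype and PS and the comparison with adipocytes were added after the data were seen. The rule named the 2 higher and 2 lower identifiers with the smallest adjusted p; other genes were picked after their values were seen and carry no identifier. Title numbers pair MEC and fibroblast libraries: the correlation of deviations from the line means was 0.111 to 0.243 in the 12 same-numbered pairs, and every library correlated best with its own number. For adipocytes it was -0.0855 to 0.122, and 9 of the 12 libraries correlated best with their own number. Alternatives were RLE size factors, no low-count filter, DESeq2 1.42.0, fits of only the groups compared, counts thinned to the shallowest library, a title-number block and leaving out each library.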

Additional observations from a re-analysis of the deposited data

Results flagged for a closer look

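The contrast of IFPS minus IF differed between tissues for several of the results given above, by the interaction term of edgeR. For ENSRNOG00000025527 the log2 difference of MECs minus adipocytes was 1.94 ± 0.27 (SE, edgeR adjusted p = 2.34e-05), with opposite signs in the 2 cell types. For ENSRNOG00000012067 it was 4.73 ± 0.29 (adjusted p = 1.62e-09) and for ENSRNOG00000015716 3.50 ± 1.13 (adjusted p = 0.0167), both with a lower level in IFPS in each cell type and a wider gap in adipocytes, where IFPS reads were few. The value of ENSRNOG00000015716 ranged from 2.47 to 3.97 over 16 alternative fits and missed the threshold in 1 of them, without IFPS adipocyte replicate 2 (3.19, edgeR adjusted p = 0.0513). Against fibroblasts, 48 of the 75 higher genes and 8 of the 34 lower genes passed, beside 12% of all genes tested. Against adipocytes, 56 of the 75 and 19 of the 34 passed, beside 45.6% of all genes tested.

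Among the 9 IFPS tumors 1 stood far from the others in ENSRNOG00000015716, at 7012 CPM against a median of 298.1 CPM. The gap was judged on the linear CPM scale. These tumors ranged down to 0.0763 CPM, so their levels spread widely in both directions.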

How the results depend on the processing

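The count of 109 genes in MECs was 97 with RLE, 123 without the filter, 95 with only the 2 lines and 103 after thinning. DESeq2 called 470, including 108 of the 109, with 58.7% higher against 68.8%. Leaving out 1 library gave 6 to 213. In fibroblasts leaving out 1 library gave 2483 to 3703 genes (all libraries 4352) and in adipocytes 6136 to 9166 (7574). In pads DESeq2 called 226 and leaving out 1 library gave 2 to 8. In tumors DESeq2 called 1987 (50.4% higher against 33.8%), the fit of only IFPS and IF 207, and leaving out 1 library 349 to 880 (678). For the difference of MECs and fibroblasts leaving out 1 library gave 942 to 1817 and the replicate block on title numbers 2382 (1830), which moved no call of a named gene, and for that of MECs and adipocytes leaving out 1 gave 6227 to 8592. The causes were not tested. ENSRNOG00000012067 and ENSRNOG00000015716 passed in MECs in all 17 alternatives, ENSRNOG00000025527 in 15 (highest edgeR adjusted p 0.0586) and ENSRNOG00000016748 in 14 (0.0597). In pads the sign of ENSRNOG00000015716, which did not pass, turned to -0.12, -0.03 and -0.22 without IFPS replicate 2, IF replicate 1 and IF replicate 3, in a range of -0.22 to 0.43 when 1 library was left out. The depth limits the genes with few reads in IFPS, whose fold changes depend on the default prior count of the edgeR fit. That prior count was set apart from the one used for log2 CPM.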

Other observations

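Some genes lower in IFPS than in IF MECs separated the PS libraries from each other by title number, in every normal tissue. A gene with a log2 fold change of -1.71 between IFPS and IF MECs stood at 35.1 and 27.1 CPM in PS MECs numbered 10 and 11 and at 10.5 CPM in number 12, which was within the IFPS range of 8.63 to 11.1 CPM. In fibroblasts PS numbers 10, 11 and 12 stood at 38.6, 36.2 and 11.3 CPM, in adipocytes at 17.7, 16.3 and 6.06 CPM and in pads at 29.7, 32.7 and 12 CPM. Number 12 was low in all 4 tissues.

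The gene with a log2 fold change of -1.99 had its low PS library at number 11. PS numbers 10, 11 and 12 stood at 6.24, 2.5 and 6.61 CPM in MECs, 2.75, 0.813 and 2.89 CPM in fibroblasts, 3.49, 1.26 and 3.48 CPM in adipocytes and 2.22, 0.873 and 3.43 CPM in pads. Both genes were picked after their values were seen, and no test was made.

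The gene with the third smallest p-value in MECs was listed near 0 in IF adipocytes, unlike in the other normal tissues of that line. It had 1, 1 and 0 reads in IF adipocytes and 128, 80 and 128 in PS adipocytes, whereas IF fibroblasts had 227, 475 and 527 reads and PS fibroblasts 167, 167 and 386.

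A gene higher in IFPS than in IF MECs by 1.32 on the log2 scale, at 2.86 to 4.13 CPM against 1.23 to 1.62 CPM, had its highest levels in IF adipocytes, at 660, 199 and 539 CPM, with wildtype adipocytes at 32.4 to 45.6 CPM and IFPS adipocytes at 3.67 to 18.7 CPM. The order of IFPS and IF was thus opposite in the 2 cell types.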
